A study of Mus musculus and Rattus norvegicus with 28 samples.

Results

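At postnatal day 3 (P3), open chromatin at gene promoters was set against the transcript level of the same genes in mouse heart cells. A gene was counted as having a promoter peak when any base of an ATAC-seq peak lay within 2500 bp of the start of any of its annotated transcripts. Of 55450 annotated genes, 19872 had a promoter peak in both P3 peak lists, 4414 in 1 of the 2 lists and 31164 in neither. Among the 21951 protein-coding genes these numbers were 13833, 1659 and 6459. Transcript level was FPKM (fragments per kilobase of transcript, scaled to the size of the library), summed over the transcripts of a gene, so it can be compared between genes per length. A gene was called expressed at an FPKM of at least 1 in both P3 RNA-seq libraries and silent at an FPKM under 0.1 in both, and genes between these limits were called low.

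The series followed cardiomyocytes of the left ventricle of wild-type C57BL/6 mice, males and females, from embryonic day 18.5 (E18.5) through P1, P3 and P7. None of these mouse groups carried a transgene or received a treatment. Each time point had 2 ATAC-seq peak lists and 2 RNA-seq libraries, described by the study as biological replicates. Cells were released by enzymatic digestion and plated briefly so that attached non-cardiomyocytes could be left behind, a step that enriches cardiomyocytes without sorting them. Nothing ties an ATAC-seq list to an RNA-seq library of the same number, so the levels of each of the 2 libraries were set against each of the 2 lists.

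ATAC-seq uses the Tn5 transposase, which cuts DNA where nucleosomes are absent or loosely held, and a peak marks such an accessible stretch. A transcribed promoter is usually cleared of nucleosomes so that general transcription factors and RNA polymerase II can bind. Promoters rich in the dinucleotide CG, which serve most housekeeping and many developmental genes, tend to be accessible in many cell types, whereas promoters poor in CG are often tissue-specific. An open promoter is therefore not the same as an active one: promoters of developmental regulators can be accessible while the gene makes no stable mRNA.

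The 8 promoters below were chosen to show the range of sequence behind the results. Each is the 200 bases before the RefSeq start of a gene in the mm10 build (GRCm38.p6), read 5′ to 3′ on the strand of the gene, with every CG in capitals. Actc1 (chr2:114052876-114053075, minus strand, cardiac alpha-actin), Myl7 (chr11:5898783-5898982, minus strand, the atrial myosin light chain) and Nkx2-5 (chr17:26841566-26841765, minus strand, a cardiac homeobox factor) were expressed without a P3 peak. Tpm1 (chr9:67049214-67049413, minus strand, alpha-tropomyosin) and Rplp0 (chr5:115559267-115559466, plus strand, a stalk protein of the large ribosomal subunit) were expressed with a peak in both lists. Dazl (chr17:50293621-50293820, minus strand, a germ cell RNA-binding protein), Stpg2 (chr3:139205693-139205892, plus strand) and Acoxl (chr2:127854428-127854627, plus strand) had a peak in both lists and were silent.
Actc1: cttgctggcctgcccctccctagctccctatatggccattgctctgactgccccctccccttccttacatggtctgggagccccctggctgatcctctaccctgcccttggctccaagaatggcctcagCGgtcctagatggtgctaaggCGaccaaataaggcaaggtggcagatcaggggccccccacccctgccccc
Myl7: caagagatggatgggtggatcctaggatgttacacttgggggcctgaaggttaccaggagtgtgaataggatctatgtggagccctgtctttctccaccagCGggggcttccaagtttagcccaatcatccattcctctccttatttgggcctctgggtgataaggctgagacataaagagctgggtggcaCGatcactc
Nkx2-5: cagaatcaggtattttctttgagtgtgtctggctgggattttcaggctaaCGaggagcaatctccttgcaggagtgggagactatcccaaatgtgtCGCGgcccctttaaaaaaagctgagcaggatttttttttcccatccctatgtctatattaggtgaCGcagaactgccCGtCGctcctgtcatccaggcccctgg
Tpm1: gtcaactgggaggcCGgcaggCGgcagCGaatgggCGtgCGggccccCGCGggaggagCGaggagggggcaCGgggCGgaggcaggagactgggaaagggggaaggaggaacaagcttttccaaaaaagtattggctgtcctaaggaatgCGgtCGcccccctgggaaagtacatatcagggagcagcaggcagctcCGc
Rplp0: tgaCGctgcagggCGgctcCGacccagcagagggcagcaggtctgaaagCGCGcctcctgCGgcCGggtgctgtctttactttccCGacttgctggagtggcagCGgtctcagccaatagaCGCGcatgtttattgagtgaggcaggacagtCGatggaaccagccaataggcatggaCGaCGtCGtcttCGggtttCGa
Dazl: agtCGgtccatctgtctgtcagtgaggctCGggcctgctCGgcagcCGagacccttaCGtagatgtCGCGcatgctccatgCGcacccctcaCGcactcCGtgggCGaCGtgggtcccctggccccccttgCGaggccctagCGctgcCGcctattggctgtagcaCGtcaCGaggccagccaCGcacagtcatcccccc
Stpg2: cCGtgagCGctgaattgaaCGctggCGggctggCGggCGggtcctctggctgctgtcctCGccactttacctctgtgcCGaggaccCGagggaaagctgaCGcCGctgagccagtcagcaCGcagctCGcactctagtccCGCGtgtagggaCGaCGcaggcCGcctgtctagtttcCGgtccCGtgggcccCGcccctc
Acoxl: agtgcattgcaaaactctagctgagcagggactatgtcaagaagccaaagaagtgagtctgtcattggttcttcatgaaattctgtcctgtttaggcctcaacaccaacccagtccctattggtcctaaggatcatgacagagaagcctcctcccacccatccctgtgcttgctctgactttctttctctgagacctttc
The 200 bases of Actc1 and Myl7 held 2 CG each and those of Nkx2-5 held 6. Tpm1 had 13 and Rplp0 had 17. Among the silent genes with a peak, Dazl had 18, Stpg2 had 21 and Acoxl had none.

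The P3 libraries were of similar depth, while the P3 peak lists were the longest of the series. The 2 P3 RNA-seq libraries held 5.61 and 5.21 gigabases of sequence on the annotated transcripts, and the other 6 held 4.40 to 5.63. The P3 lists held 95257 and 52040 peaks, against 13149 to 49113 in the other 6 lists, and the depth of the ATAC-seq libraries is unknown from the peak lists. All 19 cardiomyocyte markers were expressed in both P3 libraries, with a median FPKM of 218 and 204. All 12 fibroblast, 12 endothelial, 10 smooth muscle and pericyte and 8 epicardial markers were expressed as well, as were 9 of 12 macrophage markers, so marker transcripts of other cell types were present beside those of cardiomyocytes. In P3 libraries 1 and 2 the FPKM summed over the cardiomyocyte markers was 11002 and 8924, and over the fibroblast markers 2556 and 2448. The samples are bulk, and fewer cells of a type cannot be told apart from less RNA, or a less open promoter, per cell.

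Genes with a promoter peak had far higher transcript levels than genes without. In RNA-seq library 1 the genes with a peak in both lists had a median FPKM of 2.61 (quartiles 0.0535 and 13.5), and in library 2 the median was 2.75 (quartiles 0.0611 and 13.9). The median was 0 in both libraries for genes with a peak in 1 list and for genes with none. Restricted to protein-coding genes, the medians were 7.51 and 7.84 with a peak in both lists, 0.0675 and 0.0617 with a peak in 1 list, and 0 with none. An FPKM of at least 1 was reached by 57.9% and 58.2% of the genes with a peak in both lists and by 2.57% and 2.72% of the genes with none. The protein-coding genes with a peak in both lists carried 96.4% and 96.6% of the FPKM summed over protein-coding genes. The difference in median log2(FPKM + 1) between genes with a peak in both lists and genes with none was 1.90, and it was 0.96 when a peak in list 1 alone was enough. Genes are not independent replicates, so these values describe the 2 libraries and no test was run across genes. Genes with a peak in both lists also had more annotated transcripts (median 3, against 1 for genes with none), and so more starts at which a peak could be found.

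**Figure D1:**
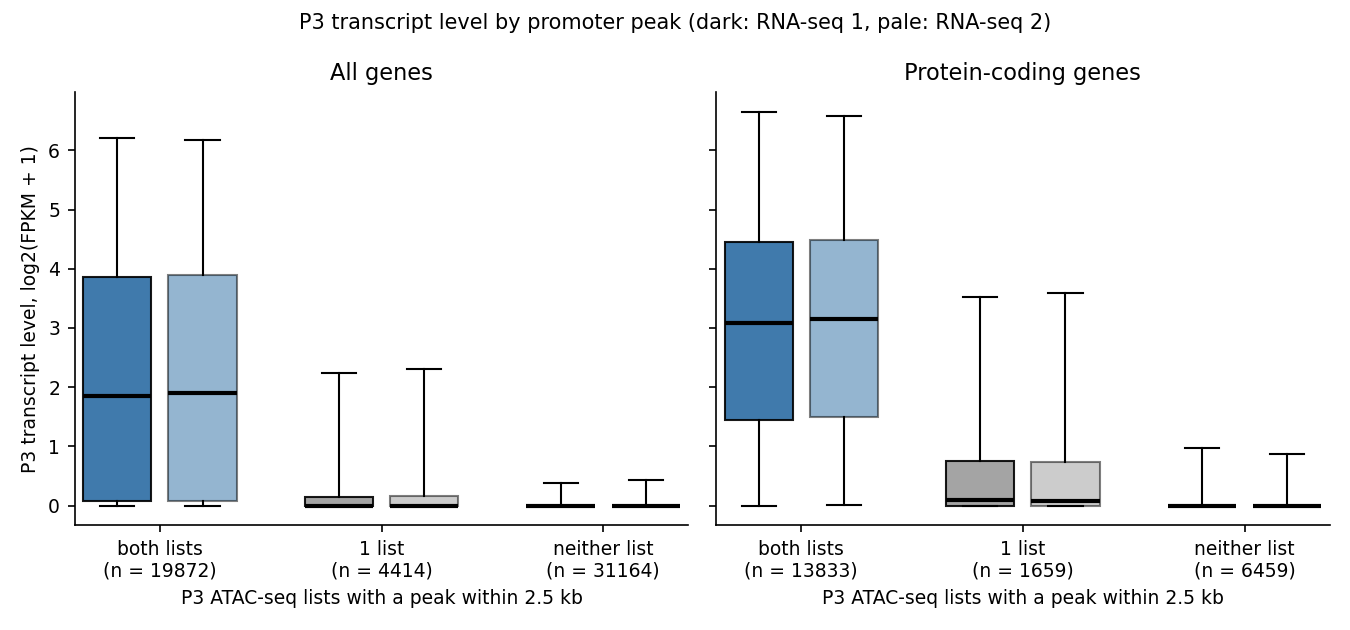
P3 transcript level as log2(FPKM + 1) for genes with a peak within 2500 bp of a start in both, 1 or neither P3 ATAC-seq list, for all genes (left) and protein-coding genes (right). Boxes span the quartiles, the black line is the median, whiskers run from the 5th to the 95th percentile, and dark and pale boxes are RNA-seq libraries 1 and 2. Among all genes the medians are 1.85 and 1.91 with a peak in both lists and 0 in the other classes, and the 2 libraries look alike within every class.

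Seen from the transcripts, most expressed genes had an open promoter, and so did a minority of silent genes. Of 12415 expressed genes, 11296 (91.0%) had a peak in both lists, 396 in 1 list and 723 (5.82%) in neither. Of 35744 silent genes, 4954 (13.9%) had a peak in both lists and 27715 had none. Among protein-coding genes, 10901 of 11503 expressed genes (94.8%) and 1117 of 7407 silent genes (15.1%) had a peak in both lists. These counts rest on the longer and the shorter list together. On list 1 alone 7925 silent genes (22.2%) had a peak, and on list 2 alone 1099 expressed genes had none. The 2 P3 libraries gave close levels, with a median absolute log2 ratio of 0.16 over the expressed genes and 223 of the 12415 differing more than 2-fold.

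The share of protein-coding genes with a peak climbed with transcript level and then levelled off. At an FPKM of 0 it was 17.3% in list 1 and 9.44% in list 2. Between 0.1 and 1 FPKM it was 76.8% and 61.4%, and between 1 and 5 FPKM it was 94.0% and 88.4%. From 5 FPKM upward it stayed between 96.1% and 98.9% in both lists. Of the 683 protein-coding genes above 100 FPKM, 7 had a peak in neither list, and all 7 are named further on.

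Transcript level differed with the distance of the peak inside the window. In 13503 genes a start lay within a peak in both lists, and these had a median FPKM of 6.72 and 7.07 and were expressed in 74.3% of cases. The 2549 genes whose farther list had its nearest peak up to 500 bp away had medians of 0.170 and 0.166, and 31.8% were expressed. Just inside the edge of the window, from 2000 to 2500 bp, 7.21% of 846 genes were expressed, and just outside it, from 2500 to 3000 bp, 7.11% of 759 genes. At both distances the median was 0, and the expressed shares on both sides of the edge were within 0.1 percentage points of each other. The distance groups also differed in gene type. Protein-coding genes made up 84.3% where a start lay in a peak and 53.1% up to 500 bp. They made up 23.3% from 2000 to 2500 bp and 28.5% from 2500 to 3000 bp. The part of gene type in the differences between distances was not tested.

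The peaks of expressed and silent genes also sat differently. Among protein-coding genes with a peak in both lists, the nearest summit, the point of highest signal in a peak, lay a median of 58 bp (list 1) and 73 bp (list 2) from a start in expressed genes. In silent genes the median distance was 271 and 356 bp. A summit within 250 bp of a start was found in 87.3% of expressed genes in either list, against 48.6% and 45.4% of silent genes. Summits more than 1000 bp away made up 1.35% and 2.31% of expressed genes but 25.2% and 29.2% of silent ones. The strongest peak of a gene was wider in expressed genes, with median widths of 771 and 679 bp against 476 and 400 bp. More than 1 peak lay in the window of 55.1% (list 1) and 35.2% (list 2) of expressed genes and of 34.5% and 13.9% of silent genes. The nearest summit was taken over all peaks and starts of a gene, so a larger number of peaks can itself shorten the distance.

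**Figure D2:**
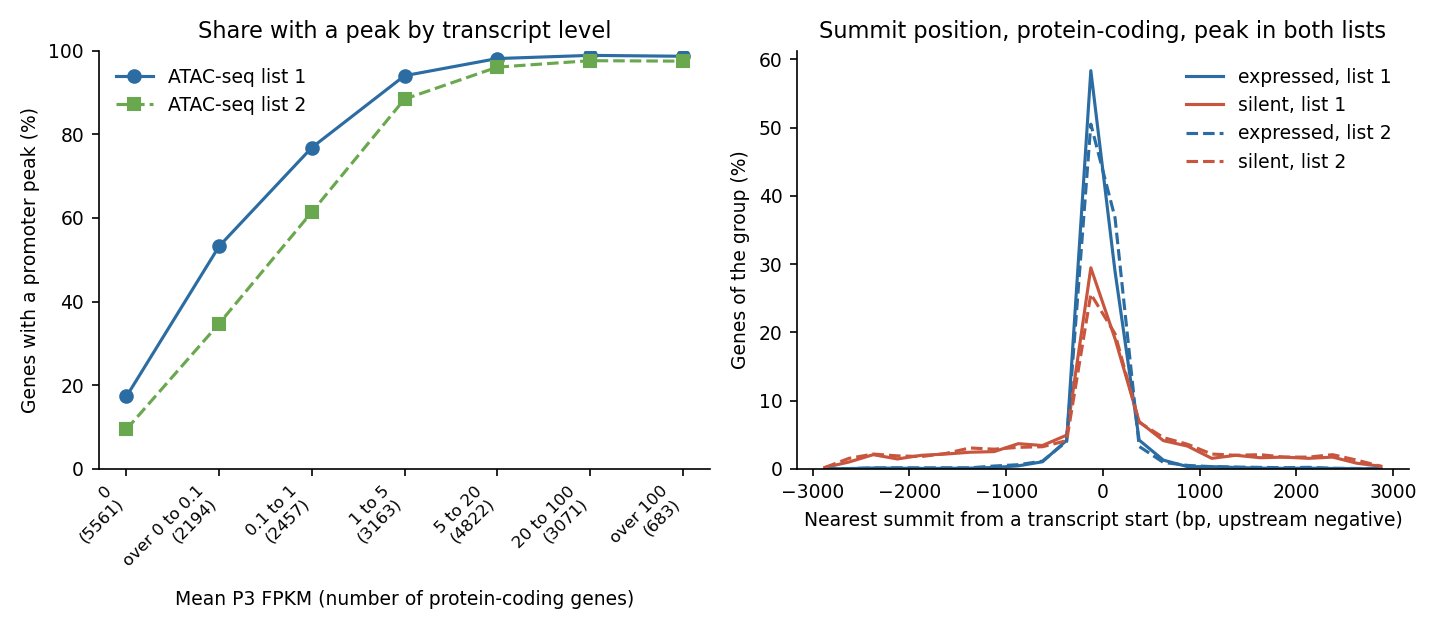
Left, percent of protein-coding genes with a P3 promoter peak in each ATAC-seq list by mean P3 FPKM, with the number of genes in brackets. Right, signed distance in bp from a transcript start to the nearest peak summit for protein-coding genes with a peak in both lists, as percent of the expressed (blue) or silent (red) genes per bin. The share rises from 17.3% and 9.44% at an FPKM of 0 to above 96% from 5 FPKM on, and the summits of expressed genes crowd at the start while those of silent genes spread over the window.

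Among genes that had a peak, its strength was only weakly related to transcript level. Strength was the highest fold enrichment of signal over the local background among the peaks of a gene. Across the 19872 genes with a peak in both lists, Spearman's rho between strength and FPKM was 0.0977 and 0.0936 for list 1 (RNA-seq libraries 1 and 2) and 0.235 and 0.234 for list 2. For the 13833 protein-coding genes among them rho was 0.0412 and 0.0385 for list 1 and 0.179 and 0.177 for list 2. Over the 11296 expressed genes alone it was -0.0866 and -0.0920 for list 1 and 0.0119 and 0.00861 for list 2, so within expressed genes the weak positive relation of all genes was near 0 or negative. The strengths of the 2 lists had a rho of 0.779 with each other, so the fold enrichments themselves ranked genes alike in both. These correlations run across genes that share libraries, and no p-value is attached to them.

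The median level was lowest over the weakest peaks and highest below the strongest. In the weakest decile of list 1 (median fold enrichment 3.95) the median FPKM was 0.334, in the seventh (8.21) it was 4.68 and in the strongest it was 3.70. In list 2 the weakest decile (4.22) had a median FPKM of 0.133, the ninth (11.1) 6.02 and the strongest (13.2) 5.63. The deciles also differed in gene type. In list 1, 58.1% of the weakest and 73.7% of the strongest decile were protein-coding, and in list 2 55.7% and 78.2%. With protein-coding genes alone split into deciles, the weakest and strongest had medians of 5.57 and 7.29 FPKM in list 1. In list 2 these medians were 1.88 and 8.77. The expressed share went from 39.7% in the weakest to 63.6% in the strongest decile of list 1 and from 31.9% to 70.5% in list 2. Silent genes made up 37.0% of the weakest and 21.4% of the strongest decile of list 1, and 43.4% and 15.3% in list 2. Read the other way, the tenth of expressed protein-coding genes with the lowest FPKM (median 1.80) had median fold enrichments of 7.64 and 7.97, while the tenth with the highest (median 116) had 6.81 and 8.17.

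**Figure D3:**
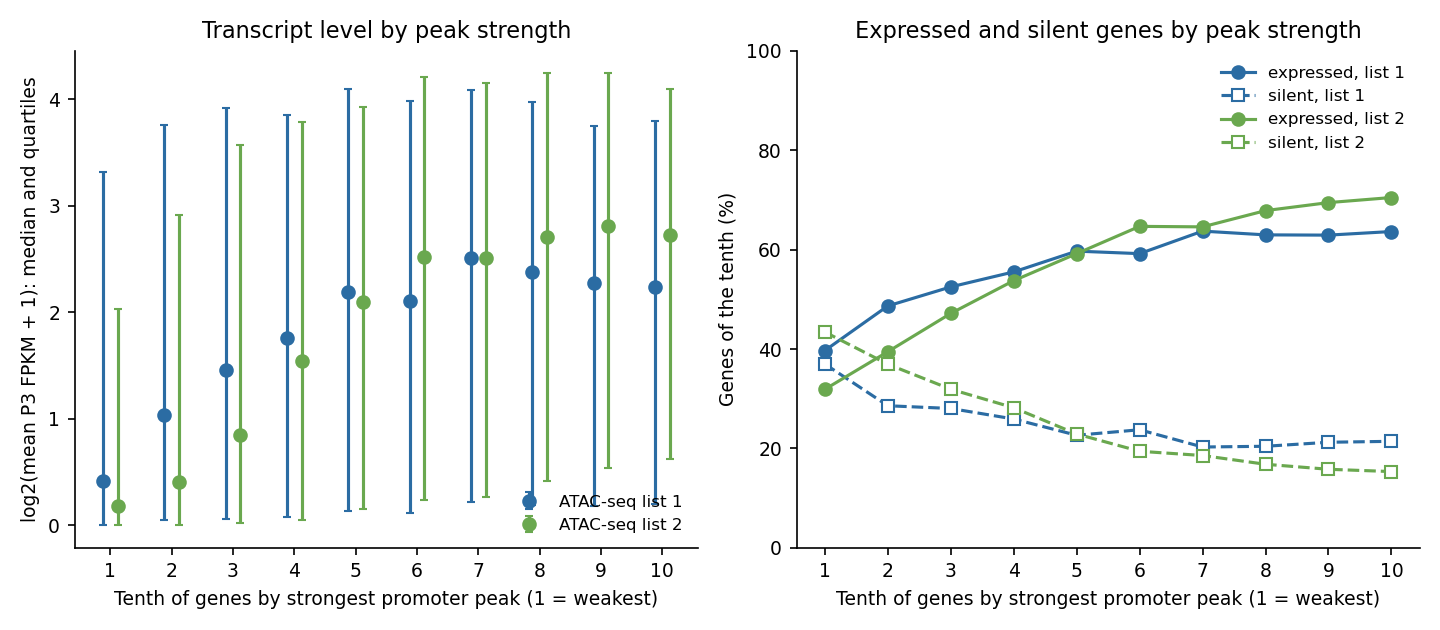
Left, median and quartiles of log2(mean P3 FPKM + 1) for genes with a peak in both lists, split into 10 equal groups by the strongest promoter peak in list 1 (blue) or list 2 (green), 1 being the weakest. Right, percent of each group that was expressed (filled) or silent (open). Expressed shares climb from 39.7% to 63.6% in list 1 and from 31.9% to 70.5% in list 2 and the median FPKM is highest in the seventh group of list 1 (4.68) and the ninth of list 2 (6.02).

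The genes with the highest levels had peaks below the strongest decile, which began at 10.9-fold in list 1 and 11.9-fold in list 2. Eef1a1, a translation elongation factor, had the highest level among genes with a peak, with an FPKM of 4291 and 4085 and a fold enrichment of 4.77 (list 1) and 9.15 (list 2). Ftl1, a ferritin light chain, was at 2575 and 2788 FPKM over a peak of only 2.97 and 5.43, and the microRNA model Gm22133, listed at 3240 and 3307, lies beside the same peak. Both names may share reads, because the counting does not separate overlapping models. Tnnt2, cardiac troponin T, had an FPKM of 2678 and 2299 with a fold enrichment of 4.32 and 5.29, and Tpm1, alpha-tropomyosin, an FPKM of 2621 and 2166 with 5.35 and 5.77. The ribosomal protein genes Rps2, Rplp1 and Rplp0 lay between 1694 and 1956 FPKM with fold enrichments from 5.49 to 9.83. Fth1, the ferritin heavy chain, was at 2192 and 2091 FPKM with 4.22 and 8.91, and Gm27597, another microRNA model, at 2194 and 1963 FPKM with 2.97 and 3.38. In list 1 the peaks of Ftl1, Gm22133, Gm27597, Fth1 and Tnnt2 lay in the weakest decile, which ended at 4.52-fold. In list 2, where that decile ended at 4.67-fold, only Gm27597 did so.

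Among the 10 genes with the strongest promoter peaks the highest level was 10.5 FPKM. The strongest peak stood near Il31ra, an interleukin receptor subunit, at 31.5-fold and 19.9-fold, with its base nearest to a start 1070 and 2042 bp away, and Il31ra had an FPKM of 0.0436 and 0.102. Gm13532, a processed pseudogene with peaks of 22.9-fold and 23.1-fold, was listed at 0 in both libraries. Golph3l, a Golgi protein gene with 20.2-fold and 18.9-fold peaks, was at 10.5 and 2.56 FPKM, a larger gap between libraries than in most genes. Kbtbd8, a ubiquitin ligase adaptor, was at 0.311 and 0.224 FPKM beneath peaks of 16.8-fold and 18.8-fold, and its antisense neighbour Kbtbd8os, over the same peaks, was at 0. The other 5 of these 10 genes were the microRNA models Gm24187 (6.82 and 6.86 FPKM) and Gm26445, the lincRNA Gm47882, the pseudogene Ftl1-ps2 and the unclassified model Gm42671, the last 4 under 0.5 FPKM. Gm26445 and Ftl1-ps2 lay at the same peaks, as did Gm42671 and Golph3l, so the 10 genes had fewer than 10 separate peaks.

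Promoter CG content differed between the classes. The CpG ratio, observed over expected CG within 500 bp on either side of the start, had a median of 0.740 in protein-coding genes that were expressed with a peak in both lists. It was 0.258 in those expressed with no peak, 0.468 in silent genes with a peak and 0.159 in silent genes with none. In the quintile of protein-coding genes with the lowest ratio, 78.9% (list 1) and 68.6% (list 2) of expressed genes had a peak, against 99.7% and 98.7% in the quintile with the highest. Silent genes went from 10.7% and 5.23% to 74.8% and 55.0% over the same range. At equal CG content expressed genes had a peak more often than silent ones in every quintile and in both lists, and at equal level CG-rich genes had one more often than CG-poor genes. Over the 21943 protein-coding genes with sequence, the CpG ratio had a Spearman's rho of 0.632 with mean FPKM, whereas over the 13828 of them with a peak in both lists its rho was 0.294 with mean FPKM and 0.102 with strength.

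The TATA box, a core promoter element of many tissue-specific genes, was distributed the other way. The letters TATAAA were searched in the 50 bases before the start on the strand of the gene, and 3.27% of all protein-coding genes held them. They stood before 1.22% of expressed genes with a peak in both lists and before 6.25% (17 of 272) of expressed genes with none. Among the expressed genes without a peak that are named further on, Mmp3, Mmp12 and Trim63 held them. Silent genes had 3.31% with a peak and 7.06% without. A match describes these letters alone and not a working site.

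The expressed protein-coding genes without a P3 peak, 272 in number, had heart muscle genes at the top of their range. Their median FPKM was 4.26, with 75 at 10 or more and 7 at 100 or more. The median distance to the nearest peak of either list was 7074.5 bp. For 163 of them a peak lay within 10 kb, and for 29 none lay within 50 kb. A peak within 2500 bp was present in at least 1 of the 6 lists of other ages for 65 of these genes and in none of the 8 lists for 207. On list 2 alone the set would number 586, and with a single start per gene 670.

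Actc1, the sarcomeric actin of the heart, was the most abundant, at 1843 and 1753 FPKM, and its nearest P3 peaks lay 3853 bp (list 1) and 6174 bp (list 2) from a start. It did have a promoter peak at E18.5 (4.03-fold and 4.97-fold), at P1 (5.75 and 3.71) and in list 2 of P7 (3.74). Mb, the oxygen carrier myoglobin, was at 596 and 500 FPKM with the nearest peaks 3265 and 3369 bp away. Mybpc3, cardiac myosin-binding protein C, was at 218 and 204 FPKM, and its nearest peaks lay only just outside the window, at 2585 and 2580 bp. Ckmt2, a mitochondrial creatine kinase, likewise missed it by little, at 2594 and 2569 bp, with an FPKM of 60.4 and 48.1.

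The other muscle genes in this set lay at varied distances from a peak. Myl7 was at 190 and 96.5 FPKM with peaks 3208 and 3256 bp away, and Pln, the phospholamban that restrains the calcium pump, at 114 and 99.1 FPKM with peaks 3739 and 12645 bp away. Csrp3, a Z-disc LIM protein, was at 82.3 and 73.6 FPKM, and Smpx, a small muscle protein, at 109 and 74.8 FPKM with the nearest peaks 53045 and 99979 bp away. Trim72, a membrane repair protein, Trim63, a muscle ubiquitin ligase, and Smyd1, a muscle methyltransferase, ranged from 33.9 to 53.0 FPKM. Cd36, a fatty acid transporter, was at 39.4 and 40.2 FPKM with the nearest peaks 35372 and 93972 bp away. Nkx2-5 was at 46.5 and 39.0 FPKM with peaks 5211 and 16269 bp away, although its promoter carried a peak in both lists of E18.5 (4.72-fold and 4.48-fold) and of P1 (5.67 and 6.08).

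A second kind of gene in this set had no promoter peak at any age. Saa3, an acute-phase protein, was at 352 and 288 FPKM, and its nearest P3 peaks lay 2757 and 2796 bp away. Lcn2, a siderophore-binding protein, was at 70.5 and 89.8 FPKM, and Hp, haptoglobin, at 48.3 and 52.4. The matrix metalloproteinases Mmp3 and Mmp12 were at 58.8 and 62.7 FPKM and at 33.0 and 40.2 FPKM, and the nearest P3 peak to either lay 40623 bp from a start. Emcn, an endothelial sialomucin, was at 106 and 98.4 FPKM, and Ifi27l2a, an interferon-induced gene, at 48.9 ± 12.6 (SD, n = 2). These 7 genes and Myl7 had no peak within 2500 bp in any of the 8 lists, and apart from Myl7 none is a muscle gene.

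Most expressed genes without a peak outside the protein-coding class were copies of other genes. Of all 723 such genes, 348 were processed pseudogenes, 21 lincRNAs and 20 unprocessed pseudogenes. The highest were Gm10925 (6184 and 5429 FPKM), Gm28661 (5781 and 5215) and Gm29216 (4907 and 4390), nuclear copies of mitochondrial DNA on chromosome 1. All 37 genes of mitochondrial DNA itself were listed at 0 FPKM in all 8 libraries, and 25 of them counted as silent with a peak in both lists. The level of such copies is uncertain, because reads from the mitochondrial genes could have been assigned to them.

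Of the 19 cardiomyocyte markers, which encode the contractile apparatus, its calcium pump and the natriuretic peptides, all were expressed and 9 had an open promoter in both P3 lists. In full, 9 had a peak in both lists, 4 in 1 list and 6 in neither. The 9 were Tnnt2, Tnni1, Tnni3, Tnnc1, Myl3, Actn2, Atp2a2, Ckm and Nppb, with fold enrichments from 3.89 (Tnnc1, list 1) to 9.78 (Nppb, list 1). Myl2 (3.03-fold) and Ryr2 (4.22-fold) had a peak in list 1 alone, and Myh6 (3.41-fold) and Nppa (2.96-fold) in list 2 alone. The 6 without were Actc1, Mybpc3, Myl7, Pln, Ttn and Myh7, of which Myl7 alone had no peak at any age. Myh6, the adult cardiac myosin heavy chain, was at 853 and 1062 FPKM, and Ttn, the giant sarcomeric spring, at 2.75 and 4.41.

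By comparison, 11 of 12 fibroblast markers had a P3 peak in both lists, the exception being the proteoglycan gene Lum, and so did 8 of 8 epicardial and 9 of 12 endothelial markers. For smooth muscle and pericyte markers the number was 6 of 10, and for macrophage markers 4 of 12, so lists of other cell types lay on both sides of the cardiomyocyte list. Collagen genes were among them, with Col1a1 at 354 and 365 FPKM over a peak of 3.60-fold and 4.96-fold. The marker lists were all poor in CG. The median CpG ratio was 0.219 in the cardiomyocyte list, 0.328 in the fibroblast, 0.294 in the endothelial and 0.357 in the epicardial list. Of the 19 cardiomyocyte genes, 16 had a ratio under 0.4. For comparison, among the 397 expressed protein-coding genes with a ratio under 0.4 and a mean FPKM of at least 20, 8.31% had a peak in neither list. The 19 genes did not all meet these limits, as Ttn and Ryr2 were under 20 FPKM. Among all expressed protein-coding genes the share was 20.4% in the quintile of lowest ratio (up to 0.179) and 9.95% in the next (up to 0.398). Cardiac transcription factors had a P3 peak in both lists for 9 of 12, with Nkx2-5 and Irx4 lacking one in both and Tbx5 in list 2.

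Across ages the number of cardiomyocyte genes with an open promoter varied as much between the 2 lists of an age as between ages. Of the 19 genes, 11 and 12 had a peak in the 2 lists of E18.5, 17 and 8 in those of P1, 11 and 11 in those of P3, and 10 and 15 in those of P7. Of the 12 fibroblast genes, 4 and 2 had one in the E18.5 lists, 7 and 3 in the P1 lists, 11 and 11 in the P3 lists, and 11 and 10 in the P7 lists. The summed FPKM of the cardiomyocyte markers, unlike their number of peaks, was lower at each later age. They summed to 34510 and 44675 FPKM in the E18.5 libraries, 16725 and 26351 in those of P1, 11002 and 8924 in those of P3, and 2925 and 1339 in those of P7. The fibroblast markers summed, in the same order of ages, to 978 and 910, 1920 and 1963, 2556 and 2448, and 3959 and 4648. The summed levels of the 2 lists thus ran in opposite directions across the ages, in samples labelled as cardiomyocytes throughout. The part of these shifts in marker RNA in the P3 peak pattern was not tested.

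The length of a peak list moved with these counts. When every list was shortened to its 13149 best-scoring peaks, the length of the shortest, 2 and 2 of the 19 cardiomyocyte genes had a peak in the P3 lists, against 11 and 12 at E18.5, 12 and 5 at P1, and 2 and 6 at P7. Of all genes expressed at P3, 5396 and 6967 of 12415 had a peak in the shortened P3 lists and 8812 and 7735 in those of E18.5. For the fibroblast list the shortened P3 lists held 2 and 5 of 12 and those of E18.5 held 4 and 2.

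**Figure D4:**
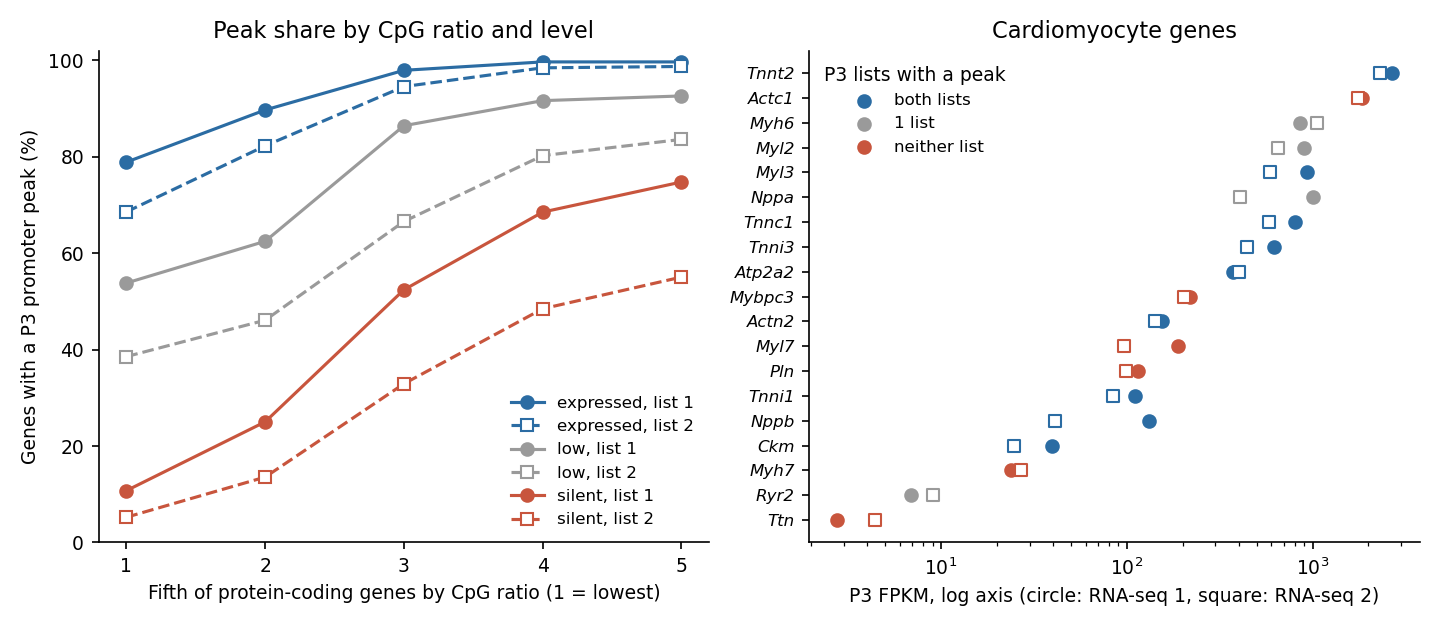
Left, percent of protein-coding genes with a P3 promoter peak in each list by quintile of CpG ratio, for expressed, low and silent genes. Right, P3 FPKM on a log axis of the 19 cardiomyocyte genes in RNA-seq library 1 (circles) and 2 (squares), coloured by the number of P3 lists with a promoter peak. At the lowest CpG ratios 78.9% and 68.6% of expressed genes have a peak against 10.7% and 5.23% of silent ones, and the 6 cardiomyocyte genes with no peak run from Ttn at 2.75 to Actc1 at 1843 FPKM.

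Gene groups that most cells use had open P3 promoters in shares near the 94.8% of all expressed protein-coding genes. All 19 glycolysis genes, all 16 cell cycle genes, all 78 genes of mitochondrial ribosomal proteins and all 15 immediate early genes had a peak in both lists. Fatty acid oxidation lacked only Cpt1b, the muscle carnitine palmitoyltransferase, among 16 genes. The respiratory chain and ATP synthase list lacked the muscle isoform Cox8b in both lists and Cox6a2 in 1, among 20 genes. Of the 89 genes of cytosolic ribosomal proteins, 79 (88.8%) were open in both lists and 7 had a peak in neither. Counting only the 84 that were expressed, 79 were open in both lists and 2 had a peak in neither. The single genes missing from the metabolic lists were heart and skeletal muscle isoforms.

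Replication-dependent histone genes had open promoters without a matching level. Of 70, 66 had a peak in both lists, yet 49 were low, 8 silent and 13 expressed, with a median FPKM of 0.416 and 0.573. These mRNAs end in a stem-loop rather than a poly(A) tail, and the libraries were made from poly(A)-selected RNA, so their FPKM is not a measure of all histone mRNA. Of 190 lncRNA genes annotated as sharing a promoter with a coding gene, 164 had a peak in both lists, and the median FPKM of the 190 was 0.0604. Their window takes in the promoter of the coding gene by annotation, so this share is no result about the lncRNAs.

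**Figure D5:**
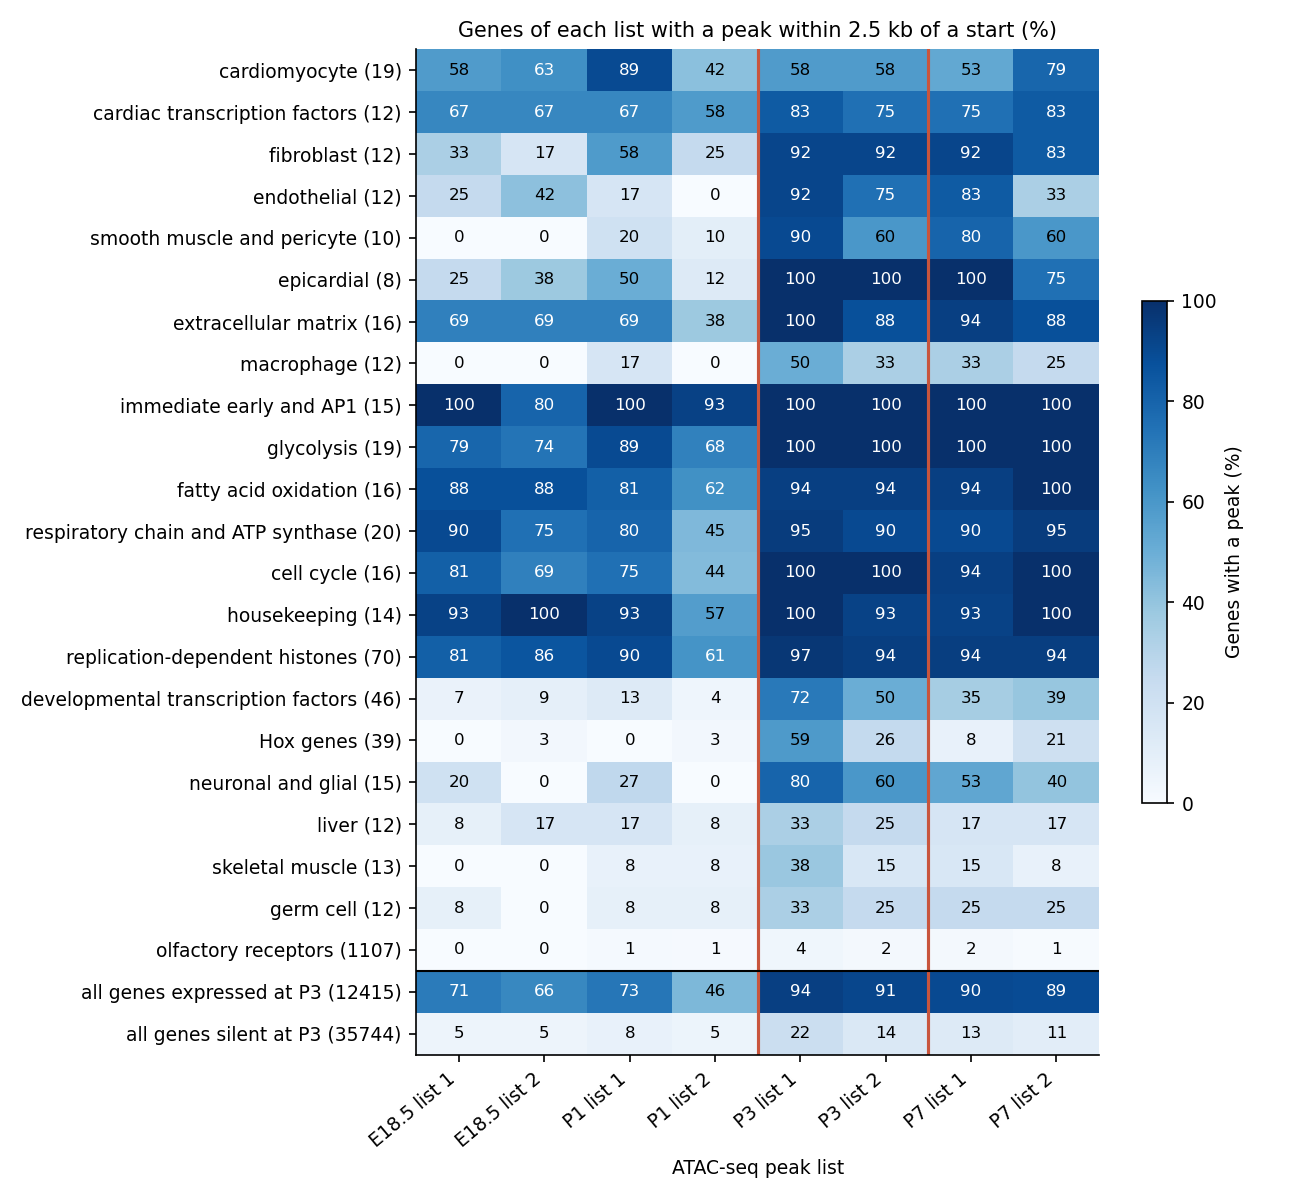
Percent of the genes of each list (rows, number of genes in brackets) with a peak within 2500 bp of a start in each of the 8 ATAC-seq lists (columns), with the P3 lists between the red lines and all genes expressed or silent at P3 in the bottom rows. The P3 columns are dark for glycolysis, cell cycle, fibroblast and epicardial genes, intermediate for cardiomyocyte genes (11 of 19 in either list) and pale for olfactory receptors.

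Silent genes with an open promoter numbered 4954, of which 1117 were protein-coding. Of the 1117, 512 were listed at an FPKM of 0 in both libraries. In 201 of them (18.0%) all peaks of at least 1 list also lay within 2500 bp of a start of an expressed gene. This share was close to the 17.2% of expressed protein-coding genes whose peaks, in at least 1 list, all lay at another expressed gene. For 671 every peak lay at no other gene. On list 1 alone the number would be 1925 instead of 1117. The lists of P7 held a promoter peak for 870 and 728 of the 1117, those of P1 for 399 and 215 and those of E18.5 for 322 and 269. None of the 1117 was expressed at P1 or P7 and 11 were expressed at E18.5.

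Genes of the germ line, sperm and early meiosis stood among the strongest of these. Ankef1 (15.8-fold and 16.5-fold) was at 0 FPKM. Catspere2, of the sperm calcium channel family, had peaks of 15.3-fold and 16.8-fold and an FPKM of 0.0687 and 0. Ccnb1ip1, a meiotic crossover factor listed at 0 in both, had 15.4-fold and 17.0-fold peaks. In at least 1 list all peaks of Ccnb1ip1 also lay within 2500 bp of a start of another gene. Dazl had 10.5-fold and 14.0-fold peaks and an FPKM of 0 and 0.0193. Of a list of 12 germ cell genes, 3 had a peak in both lists (Dazl, Zp3 and Figla), and the other 9 lacked one in at least 1 list. These 3 were among the 9 silent genes of the list, beside 15.1% of all silent protein-coding genes with a peak in both. The 20 strongest silent genes whose peaks lay at no other gene had fold enrichments from 9.66 to 16.8 and FPKM of at most 0.0748.

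Genes of nerve and other tissues made up further members. Cacna2d3 (up to 14.7-fold) and Cacng2 (up to 14.3-fold), both neuronal calcium channel subunits, were at 0 FPKM, and Trim9, a neuronal ubiquitin ligase, at 0.0117 and 0 over 15.2-fold and 14.6-fold peaks. In at least 1 list all peaks of Cacng2 also lay within 2500 bp of a start of another gene. Tshr, the thyrotropin receptor, was at 0.0248 and 0.0133 FPKM over 14.8-fold and 15.5-fold peaks, and Pkhd1, the fibrocystin of kidney and bile duct, at 0 and 0.00890 with peaks whose nearest base lay 1228 and 1223 bp from a start. The T cell growth factor gene Il2 (14.1-fold and 10.6-fold) and the vomeronasal receptor gene Vmn1r40 (12.5-fold and 14.1-fold) were at 0, with the nearest bases 2219 to 2317 bp and 520 to 543 bp from a start. Stpg2, with 21 CG in the 200 bases shown above, had peaks of 10.1-fold and 15.9-fold that covered a start, and Acoxl, with none, had peaks of up to 14.7-fold that also covered one. The covered start could be any start of the gene, so these peaks need not lie over the printed bases. Whether the printed Acoxl promoter itself was open is therefore not shown.

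Developmental regulators had more open promoters in the P3 lists than in those of any other age. Of 46 developmental transcription factors, 39 were silent and 23 had a P3 peak in both lists, 18 of them silent. Among the 18 were Pax9 (8.22-fold and 7.82-fold), a regulator of pharyngeal organs and skeleton, Nkx6-1 (8.30 and 6.58), of pancreas and neural tube, Dlx1 (6.56 and 7.63), of forebrain interneurons, and Isl1 (7.17 and 5.29), of early heart progenitors and motor neurons. Their FPKM did not exceed 0.0915. For comparison, 13.9% of all silent genes and 15.1% of silent protein-coding genes had a peak in both lists. The list of 46 had a median CpG ratio of 0.676. In the quintile of protein-coding genes that holds this ratio, 47.2% of silent genes had a peak in both lists. The 8 lists in order of age held a peak for 3, 4, 6, 2, 33, 23, 16 and 18 of the 46. Shortened to 13149 peaks, the same lists held 3, 3, 3, 1, 2, 2, 1 and 3, so the P3 surplus lay among peaks below that limit. At full length, all genes silent at P3 also had a peak most often in the P3 lists. Their shares were 22.2% and 14.2% there, against 4.90% to 13.1% in the other lists.

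Hox genes, which set position along the body axis, followed the same pattern. Of 39, 29 were silent, and a peak stood in both P3 lists for 9 and in 1 list for 15. The 8 lists held 0, 1, 0, 1, 23, 10, 3 and 8 of them. Silent Hox genes with a peak in both lists were Hoxa7, Hoxa10 and Hoxd10, at no more than 0.0560 FPKM. These were 3 of the 29 silent ones, beside 13.9% of all silent genes and 15.1% of silent protein-coding genes. Of 15 neuronal and glial genes, 9 had a peak in both lists and 7 of these were silent, among them Gad1, which makes the transmitter GABA, at 6.47-fold and 5.29-fold with an FPKM of 0. The neuronal and glial list held 12 silent genes and had a median CpG ratio of 0.599. In the quintile of protein-coding genes that holds this ratio, 32.3% of silent genes had a peak in both lists. Of 1107 olfactory receptor genes, 17 had a P3 peak in both lists, a share of 1.54%, so most silent receptor genes had none.

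Compared with the other ages, the P3 lists covered the largest share of expressed genes. Among the genes expressed at each age, 94.0% and 91.1% had a promoter peak at P3, against 71.4% and 66.5% at E18.5, 73.3% and 46.1% at P1 and 90.0% and 89.1% at P7. The P3 mean of 92.6% exceeded the mean of the other 6 lists, 72.7%, by 19.9 percentage points. By a two-sided exact permutation test over the 8 lists p was 0.0714, the smallest value that the 28 arrangements allow, so this design could not reach 0.05. With the lists shortened to equal length the difference turned to -7.67 percentage points. The share of silent genes with a peak was 22.2% and 14.2% at P3, against 4.23% to 13.5% in the other lists.

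Changes since E18.5 were counted for each P3 promoter class. Levels were compared with limma on log2(FPKM + 1) over 13979 genes, and a gene was called at a Benjamini-Hochberg adjusted p under 0.05 and a change above 2-fold. From E18.5 to P3, 13.0% of all tested genes were called higher and 8.88% lower. Of the 723 expressed genes with no peak, 75 (10.4%) rose and 87 (12.03%) fell, with a median log2 change of 0.03. Of the 11296 expressed genes with a peak in both lists, 1648 (14.6%) rose and 687 (6.08%) fell, with a median of 0.24. The median of all tested genes was 0.16. Both expressed classes were chosen by their level at P3, which favours rises over falls. Their difference from all tested genes is therefore no result, and the 2 classes can only be set beside each other. Over all 12230 tested genes with a peak in both lists 1650 rose and 912 fell, and over all 1133 with no peak 76 rose and 200 fell, but those that were not expressed at P3 entered the fit through their level at other ages, so their direction is no result. Rescaling moved this balance: higher calls were 59.4% of all calls as deposited, 71.9% on TPM and 49.7% after median-of-ratios scaling, with the median change of all genes at 0.36 and 0.03. The 7 red cell markers, globins among them, summed to 29046 and 35395 FPKM at E18.5 and to 4.70 and 10.2 at P3, and the part of this shift in the comparison was not tested.

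The 272 protein-coding genes expressed without a P3 peak were called in larger shares in both directions. From E18.5 to P3, 58 (21.3%) rose and 52 (19.1%) fell, against 14.8% and 5.93% of the 10901 with a peak in both lists. Those that rose included the inflammatory genes. Saa3 rose by 6.15 on the log2 scale (SE 0.41, limma adjusted p 3.79e-05), from 5.43 and 2.14 FPKM at E18.5 to 352 and 288 at P3. Mmp3 rose by 5.80 (SE 0.23, limma adjusted p 7.30e-06), from 0.151 and 0.0649 to 58.8 and 62.7. Hp rose by 4.37 and Lcn2 by 4.09, and in each of these genes both P3 libraries lay above both E18.5 libraries.

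The muscle genes of this set were among those that fell. Csrp3 dropped by 3.25 on the log2 scale (SE 0.29, limma adjusted p 0.000113), from 605 and 927 FPKM at E18.5 to 82.3 and 73.6 at P3. Mb dropped by 2.05 (limma adjusted p 0.00490) and Actc1 by 1.98 (SE 0.38, limma adjusted p 0.00339), the latter from 5864 and 8565 FPKM. Nkx2-5 dropped by 1.22 (limma adjusted p 0.0231), from 93.1 and 109 FPKM to 46.5 and 39.0. Among genes with a peak in both lists Tnnt2 dropped by 1.42 and Tpm1 was not called (log2 change -0.54, limma adjusted p 0.118). Ckmt2 was not called either (log2 change -1.36, limma adjusted p 0.0607), and Trim72 rose by 1.78 against the trend of the other muscle genes.

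From P3 to P7 the calls were fewer and depended on single libraries. Over all tested genes 1.35% were called higher and 2.20% lower at P7. Of the 272 genes, 13 (4.78%) rose and 42 (15.4%) fell, against 1.01% and 1.91% of expressed protein-coding genes with a peak in both lists. The 42 included Actc1, which dropped by 2.51 (SE 0.38, limma adjusted p 0.0129) to 457 and 217 FPKM, Mybpc3 by 2.59, Smpx by 2.57 and Nkx2-5 by 2.19. Mmp3 rose by 2.99 (limma adjusted p 0.00290) to 403 and 594 FPKM and Hp by 1.42, while Saa3 was not called (log2 change 1.67, limma adjusted p 0.0591). Over all genes, leaving out P3 replicate 1 left 23 calls of 496, leaving out P3 replicate 2 left 26 and leaving out P7 replicate 2 left 106.

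Silent genes with a peak had little transcript at the other ages as well. Of the 4954, 22 passed the filter on low values in the limma comparison. Of these, 18 were called lower at P3 than at E18.5, a direction fixed by choosing genes silent at P3, and limma called none of the 22 from P3 to P7, where 2 had an unadjusted p under 0.05. Hif3a, a hypoxia-inducible factor subunit, was at 3.23 and 3.75 FPKM at E18.5, 0.0505 and 0.0478 at P3 and 0.0610 and 0.0827 at P7. Kctd12 was at 6.92 and 8.30 FPKM at E18.5 and 0 at P3, with P3 peaks of 5.25-fold and 10.1-fold over a start. The promoters of these genes were thus accessible at P3 while their mRNA was under the limit for silent genes.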

How the data were processed

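Mouse ATAC-seq peak lists (2 per time point) and RNA-seq transcript tables (2 per time point) were used as deposited. The authors trimmed reads with cutadapt, aligned ATAC-seq reads with Bowtie2 to mm10, removed duplicates with Picard and blacklisted regions, and called peaks with MACS2 on each sample. The deposited peak lists hold a score, the fold enrichment of signal over local background (a ratio, used here as peak strength), and −log10 p and −log10 q per peak. RNA was poly(A)-selected, prepared with a kit that does not mark strand, aligned with HISAT2 2.1.0 and quantified by the authors with StringTie 1.3.5 as FPKM per transcript on GENCODE gene models. Because strand was not marked, overlapping and antisense genes cannot be told apart, and read depth is known only from the coverage of the transcripts. Rat and HiChIP files were not used here.

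FPKM was summed per gene over 141767 transcripts of 55450 genes. A gene was assigned each peak with a base within 2500 bp of any of its 132758 starts. The time points were compared with limma 3.58.1 (R 4.3.3) on log2(FPKM + 1), which understates changes of low genes, keeping genes that reached an FPKM of 1 in 2 or more libraries, in a single fit of all 8 RNA-seq libraries. Calls needed a Benjamini-Hochberg adjusted p under 0.05 together with an absolute log2 change above 1. The share of expressed genes was compared by an exact permutation test over lists. Scripts were tested on simulated data. All 55450 genes of the files matched the mm10 annotation used for the sequences around starts. Printed promoters come from a RefSeq table of GRCm38.p6 in which 75.4% of protein-coding genes matched, so motif and CG counts over all genes were taken from the genome around the start of each gene. Where a gene had several starts, 1 start per gene was used for these.

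Genes were named by rank: the 10 with the highest level and the 10 with the strongest peak among genes with a peak in both lists, the 20 protein-coding and 5 other expressed genes without a peak of highest level, the 20 protein-coding silent genes with the strongest peaks in both lists and the 20 strongest whose peaks lay at no other gene, and up to 10 silent genes with a peak called between time points. Members of the gene lists are named beside their counts. The members and the lists were chosen with earlier results of these data known. Whether the replicates came from separate litters is not given in the sources used here, so p-values measure the spread between these samples.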

Additional observations from a re-analysis of the deposited data

How the results depend on the processing

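Many results moved with the processing, and the cause was not tested beyond the smaller number of peaks in shortened lists. With each list shortened to the length of the shortest of the series, 7071 genes had a P3 peak in both lists, the difference of median log2(FPKM + 1) between these and genes with none was 2.81, 39.8% of expressed and 3.05% of silent genes had a peak in both, Spearman's rho of strength against FPKM reversed to -0.0964, 4994 expressed genes had no peak, 1089 silent genes had one, and the share of expressed genes at P3 lay 7.67 points below the other ages (-7.67). With each list cut at its median score, the difference was 2.54, the shares were 77.3% and 7.70%, rho reversed to -0.0126, and the counts were 1509 and 2753. Within 1000 bp instead of 2500 bp the difference was 2.44, the shares 88.8% and 8.87%, rho 0.136 and the silent genes with a peak 3169. With a single start per gene the expressed share was 86.5%, rho 0.142 and the expressed genes without a peak 1133. On protein-coding genes alone the difference was 3.12, the expressed share 94.8%, rho 0.120 and the counts 272 and 1117. On TPM the difference was 2.81, the expressed share 88.0% and the expressed genes without a peak 1099. A pseudocount of 0.1 gave a difference of 4.82, and genes with an FPKM over 0 in both libraries gave 2.63, with 36.5% of silent genes holding a peak. The Spearman correlation of mean strength with mean level over all genes was 0.178. It was 0.279 with −log10 p as strength and reversed to -0.0379 over expressed genes. From an FPKM of 5 upward 256 expressed genes had no peak.

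Leaving out each replicate in turn gave 19872 to 24135 genes with a peak, a difference of 0.96 to 1.91, expressed shares of 89.9% to 94.0%, silent shares of 14.2% to 22.2%, rho of 0.177 to 0.269, 743 to 1099 expressed genes without a peak, 5058 to 7925 silent genes with one and a share at P3 that was 14.5 to 23.3 points above the other ages. For P3 against E18.5 it gave 1540 to 1879 higher and 835 to 964 lower genes with a peak, and 72 to 84 higher and 168 to 232 lower genes with none. For P7 against P3, where 132 and 216 genes with a peak and 27 and 47 with none were called higher and lower, it gave 9 to 143 higher and 2 to 240 lower genes with a peak, and 5 to 22 higher and 1 to 46 lower genes with none. Without P3 replicate 1 the P7 counts were 9, 2, 5 and 1, without P3 replicate 2 they were 13, 3, 5 and 1, and without P7 replicate 2 they were 28, 39, 7 and 11. No filter on low values left 4 and 2 genes with a peak and 5 and 0 with none called between P3 and P7, while TPM raised the genes higher at P3 than at E18.5 to 2847 with a peak and 148 without, and a pseudocount of 0.1 to 117 without. The replicate numbers only name the samples. Their deviations correlated at -0.0964 between E18.5 and P3 and at 0.116 between P3 and P7 over 13979 genes, and a replicate block gave 1656, 912, 77 and 199 calls for the first comparison and 127, 181, 27 and 39 for the second. The other results were within the spread between replicates, or within 1.5 times for counts, under the remaining settings. Leaving out the genes of mitochondrial DNA and shortening the lists for the cardiomyocyte genes were chosen after seeing the data.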

Other observations

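Other gene families also differed in how P3 promoter peaks met transcript levels. Of 417 zinc finger genes named Zfp, mostly transcriptional repressors, 366 had a P3 peak in both lists, with median fold enrichments of 8.79 and 9.13, while their median level was only 2.02 and 2.29 FPKM. For all genes the median fold enrichments were 6.58 (list 1) and 7.67 (list 2). Each of these medians, and those of the gene lists, was taken over the genes with a peak in that ATAC-seq list. Of the cytosolic ribosomal protein genes, 79 of 89 were open in both lists, at a median level of 560 and 506 FPKM. Their median fold enrichments were 6.19 and 7.74, below that of all genes in list 1 only. The extracellular matrix list had 14 of 16 genes open in both lists at a median fold enrichment of 4.54 and 4.56 and a median level of 226 and 228 FPKM. Of all silent genes 13.9% had a P3 peak in both lists, and of the silent protein-coding genes 15.1%. Among the silent members of other lists, 19 of 635 immunoglobulin and T cell receptor segments had one, and 0 of 37 keratins. For skeletal muscle genes the number was 2 of 9 and for liver genes 2 of 8. Counted over all members, expressed ones included, the numbers in the same order were 23 of 647 (3.55%), 7 of 50 (14%), 2 of 13 (15.4%) and 3 of 12 (25%). These lists were chosen with earlier results known, and no test was run on them.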
